A study of Caenorhabditis elegans with 2 samples.

Results

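Summits of CEH-18 chromatin immunoprecipitation were described at 10 genes of the TGF-beta pathways of the nematode Caenorhabditis elegans, of 19973 protein-coding genes in all. CEH-18 is a POU homeodomain transcription factor. The genes were the ligand genes daf-7, dbl-1 and tig-2, the receptor genes daf-1 and daf-4, the SMAD genes daf-8, daf-14, daf-3 and sma-3, and the SNO/SKI gene daf-5. They were chosen by name with measured values known: daf-5 holds many summits, and this count led to the choice. Summit numbers and signals at these genes are therefore given as a description, with no test. All 10 names were matched to 1 gene each in the Ensembl annotation.

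TGF-beta ligands bind paired type I and type II receptor kinases, which phosphorylate SMAD proteins that then act on transcription in the nucleus. In C. elegans, the DAF-7 ligand signals against entry into the dauer larva, a stress-resistant alternative stage: the SMADs DAF-8 and DAF-14 oppose the SMAD DAF-3 and its SNO/SKI partner DAF-5. The bone morphogenetic protein-like ligand DBL-1 signals through the SMAD SMA-3 and promotes a large body, and the type II receptor DAF-4 serves both branches.

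The study measured 1 group, whole hermaphrodite late embryos of strain OP533, genotype unc-119(tm4063) III with the transgene wgIs533, taken 3 h after egg bleaching. All worms stably expressed CEH-18 with a C-terminal GFP-FLAG tag from this 1 line, and all carried the unc-119 allele. The 2 biological replicates, 1 library each, were precipitated with an antibody to GFP by the description, while the antibody field reads ceh-18. Embryos were taken whole, so a site bound in few cells and a site bound weakly in many cannot be told apart. The labels do not say that the replicates were grown separately, so the spread between them may be technical.

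A summit is the highest point of a peak in the authors' lists on the ce11 build. The signal is the authors' value for each peak, on a scale that is not stated. The thresholded list, filtered by the authors on reproducibility between replicates, held 2575 peaks with signals of 114.217 to 1223 and a median of 172. Its peaks were all rows of a pooled list of 28466 peaks, and the lists of replicates 1 and 2 held 30000 and 21337 peaks. Depth is unknown, as no read counts were analysed, and signals were compared only within a list. Each gene's region ran from the end of the nearest protein-coding gene upstream, not counting overlapping genes, to the 3′ end of the gene.

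Of the 10 genes, 7 had at least 1 thresholded summit in their region, where 13.9% of all protein-coding genes did. The members' regions had a median length of 8.62 kb, against 3.83 kb for all protein-coding genes. By region length, 0 of 2 members under 5 kb, 3 of 3 members of 5 to 10 kb, 3 of 4 members of 10 to 20 kb and the only member of 20 kb or more had one. Among all protein-coding genes of the same lengths, the shares were 8.0%, 17.5%, 29.6% and 40.3%. A pooled summit lay in the regions of 9 of 10 members, where 56.0% of all genes had one. The members held 14 thresholded and 70 pooled summits in all, and 62 and 48 summits in the lists of replicates 1 and 2.

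Most of these summits lay away from the genes' annotated starts. The promoter window ran from 1000 bp upstream to 200 bp downstream of the gene's outermost annotated 5′ end, and starts of shorter transcripts were not used. In it 1 of 10 members, tig-2, had a thresholded summit, where 7.20% of all protein-coding genes had one. Of the 14 summits, 7 lay in introns and 7 upstream of the gene, and none lay in an annotated exon of a member. The shares of all thresholded summits in such places are not given here. This placement therefore describes the 14 summits and is not shown to be particular to these genes. The nearest 5′ end of a coding gene was the member's own for 10 summits and a neighbour's for the other 4.

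**Figure D1:**
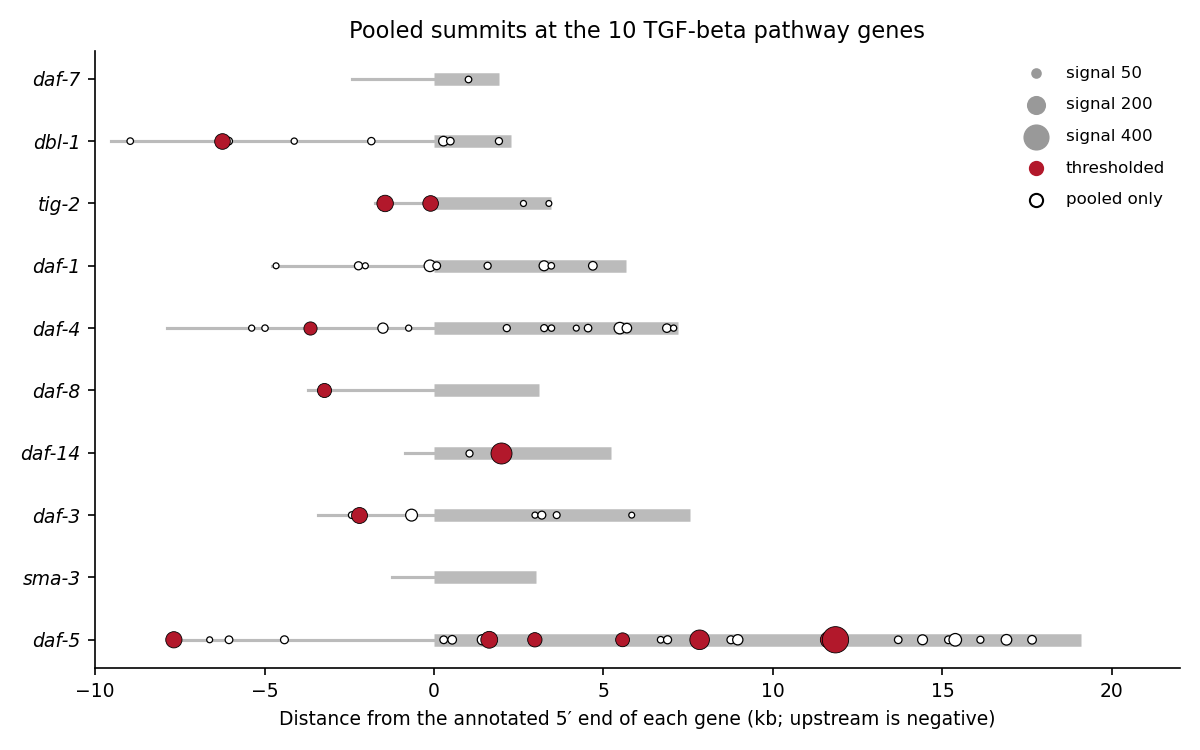
Pooled summits at the 10 genes, by distance in kb from each gene's annotated 5′ end. Thin lines are upstream sequence, thick bars gene bodies, filled points thresholded summits and open points other pooled summits, and a point's area follows its pooled signal; daf-5 holds 7 of the 14 filled points and sma-3 has no point.

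daf-5 (WBGene00000901) encodes the SNO/SKI-family regulator that acts with DAF-3 to promote dauer entry. The gene spans chrII:14033216-14052304 on the reverse strand, and its 26.9 kb region reaches up to rpb-11, a gene for an RNA polymerase II subunit that is transcribed away from it. It held 7 thresholded summits, or 2.61 per 10 kb, where the nuclear genome averaged 0.257 per 10 kb. Of the 7, 6 lay in the first intron, of 14.4 kb, of the long transcript W01G7.1.2 and 1 lay upstream.

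The 101 bases centred on each of these summits are shown because the daf-5 pattern rests on them. All are read 5′ to 3′ on the forward strand of WBcel235, the assembly of ce11, opposite to the direction of daf-5. Capitals mark GAGAGA or its reverse complement TCTCTC, a word frequent at CEH-18 summits here, and GTCTG, its reverse complement CAGAC or the palindrome GTCTAGAC, words of SMAD binding sites.
daf-5, 7674 bp upstream, chrII:14059928-14060028: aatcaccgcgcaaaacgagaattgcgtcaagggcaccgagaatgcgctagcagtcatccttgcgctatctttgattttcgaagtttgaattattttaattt
daf-5, intron, 1630 bp downstream, chrII:14050624-14050724: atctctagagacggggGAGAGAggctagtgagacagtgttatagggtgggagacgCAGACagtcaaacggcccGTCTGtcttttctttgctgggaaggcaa
daf-5, intron, 2975 bp downstream, chrII:14049279-14049379: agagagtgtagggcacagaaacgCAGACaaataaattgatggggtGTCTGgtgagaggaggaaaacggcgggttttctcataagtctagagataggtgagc
daf-5, intron, 5563 bp downstream, chrII:14046691-14046791: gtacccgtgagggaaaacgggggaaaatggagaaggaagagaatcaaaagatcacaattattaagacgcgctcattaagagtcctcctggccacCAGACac
daf-5, intron, 7836 bp downstream, chrII:14044418-14044518: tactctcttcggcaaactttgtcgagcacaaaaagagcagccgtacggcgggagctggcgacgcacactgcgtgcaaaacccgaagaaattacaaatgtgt
daf-5, intron, 11641 bp downstream, chrII:14040613-14040713: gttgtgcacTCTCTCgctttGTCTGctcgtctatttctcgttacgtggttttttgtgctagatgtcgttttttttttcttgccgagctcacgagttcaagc
daf-5, intron, 11844 bp downstream, chrII:14040410-14040510: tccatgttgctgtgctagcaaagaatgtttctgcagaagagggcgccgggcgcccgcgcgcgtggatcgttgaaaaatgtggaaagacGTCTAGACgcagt

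The summit with the highest signal, 11844 bp downstream of the 5′ end, had a pooled signal of 478, 84th of the pooled list. Its signal was 256 in replicate 1 (rank 66) and 232 in replicate 2 (rank 103). It lay 203 bp from the summit 11641 bp downstream, inside the same interval chrII:14040279-14040722. That neighbour had a pooled signal of 188, with 81.0 in replicate 1 and 135 in replicate 2. The interval thus held the strongest and the median of the 7 by signal.

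The second strongest summit of daf-5, 7836 bp downstream, had a pooled signal of 265 (rank 504), with 134 in replicate 1 and 128.98 in replicate 2. Nearer to the 5′ end, the summit 1630 bp downstream had a pooled signal of 196, with 80.8 in replicate 1 and 109 in replicate 2. The summits 2975 and 5563 bp downstream were the weakest of the 7. Their pooled signals were 142 and 133, with 80.3 and 63.5 in replicate 1 and 66.1 and 64.1 in replicate 2. The upstream summit, 7674 bp from daf-5 but 107 bp upstream of the 5′ end of rpb-11, had a pooled signal of 182, with 73.9 in replicate 1 and 113 in replicate 2. All 7 were thus present in both replicates, with the same strongest summit.

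The median pooled signal of the 7 daf-5 summits was 188, and 5 of 7 exceeded the thresholded list's median of 172. A short transcript, W01G7.1.1, starts 14583 bp downstream of the long one. All 6 intronic summits lay upstream of that second start, the nearest by 2739 bp. They spanned 10.2 kb, and all 7 spanned 19.5 kb with gaps of 203 to 9304 bp. No other annotated protein-coding gene lies inside the region.

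Below the threshold, the daf-5 region held 17 more pooled summits. The strongest, 108.7 in the second intron and 15378 bp downstream, ranked 2755th, just outside the thresholded list, with ranks of 2646 in replicate 1 and 3525 in replicate 2. It lay 795 bp downstream of the short transcript's start. Next came a coding-exon summit 16888 bp downstream, with a signal of 77.3. At the short transcript's own start, a summit 170 bp upstream had a signal of 67.2. At the long transcript's start, no pooled summit lay between 4412 bp upstream and 286 bp downstream, and the summit at 286 bp had a signal of 40.4. Thus neither annotated start of daf-5 had a thresholded summit beside it.

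**Figure D2:**
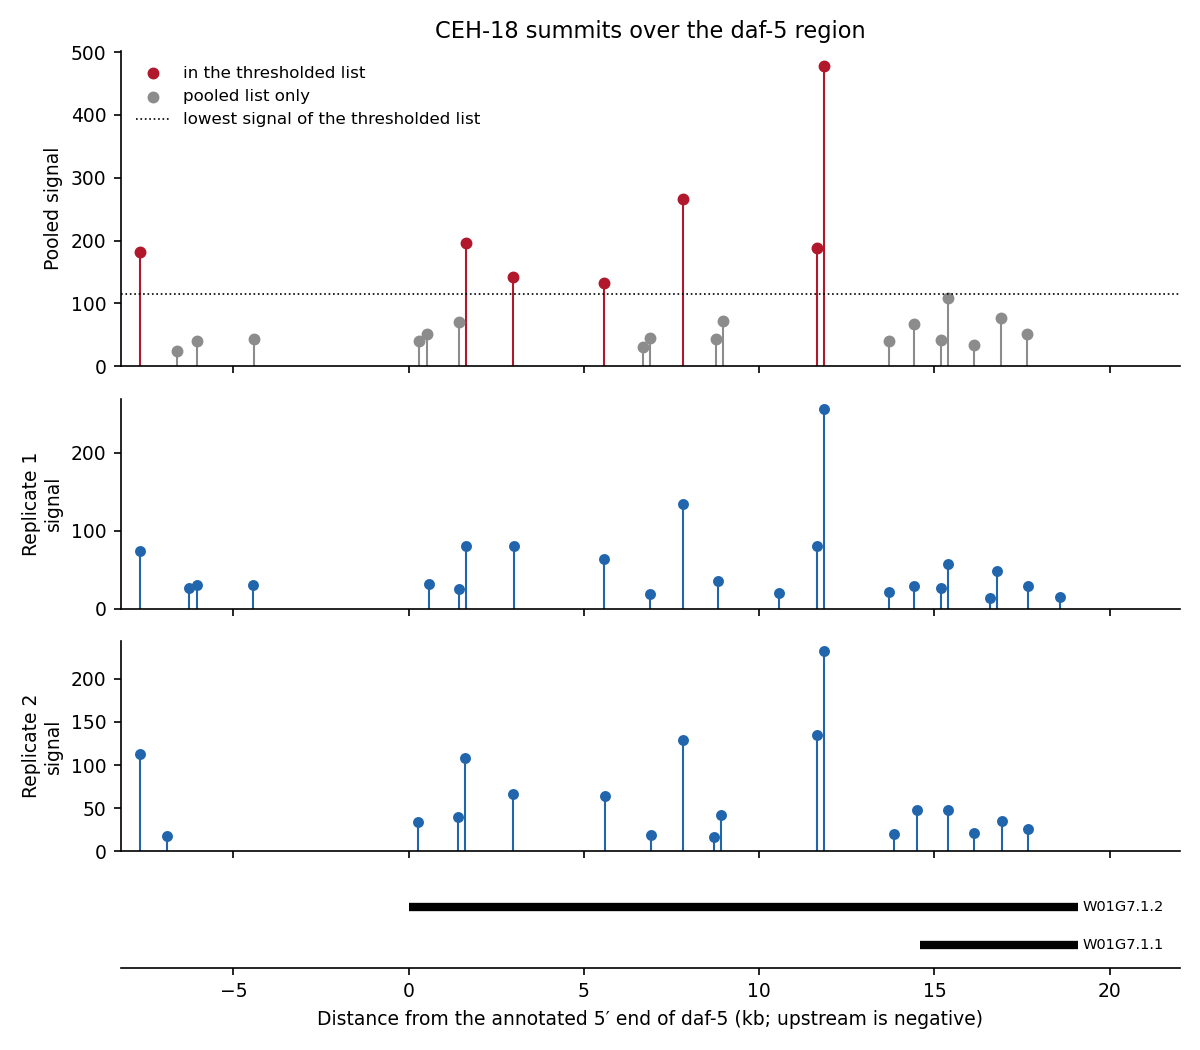
Signal of each summit over the daf-5 region in the pooled list and in each replicate list, against distance in kb from the annotated 5′ end, with the 2 transcripts below. The 7 thresholded summits rise above the dotted line at a pooled signal of 114.217, drawn in the pooled panel alone, and the highest stands 11.8 kb downstream in all 3 lists.

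The first intron of daf-5 is one of the longest in the genome. Of 19287 protein-coding genes with a first intron, 13 had one at least as long, daf-5 included, and the median first intron was 86 bp. Of the 62 first introns of at least 10 kb, that of daf-5 included, 33.9% held a thresholded summit. All of them together held 0.469 summits per 10 kb, against 4.15 per 10 kb in daf-5. The 6 summits in daf-5 were the most in any first intron. Since daf-5 was chosen for its summits, these values say how far it stands apart and test nothing.

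Among the ligand genes, daf-7 (WBGene00000903, chrIII:811844-813773, forward strand), the dauer pathway ligand, had no thresholded summit in its 4.34 kb region. Its only pooled summit, in a coding exon 1010 bp downstream, had a signal of 29.6 and ranked 20843rd. Replicate 1 had 16.7 there, and replicate 2 had no overlapping peak but a separate weak summit 1750 bp upstream, with a signal of 20.04. No reproducible binding was listed at daf-7.

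dbl-1 (WBGene00000936, chrV:6758135-6760418, forward strand) encodes the ligand of the body-size branch. Its 11.8 kb region held 1 thresholded summit, far upstream, and 7 weaker pooled summits. The summit 6260 bp upstream had a pooled signal of 169.7 (rank 1318), with 82.8 in replicate 1 and 78.1 in replicate 2. The replicate 2 summit lay 97 bp from the pooled one, the largest such distance among the 14 thresholded summits. At the gene itself, a coding-exon summit 279 bp downstream had a pooled signal of 63.5 and ranked 3469th in replicate 1, and no replicate 2 peak overlapped it. The replicate lists differed more over dbl-1 than over any other member, with 9 summits in replicate 1 and 2 in replicate 2.

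tig-2 (WBGene00006570, chrV:4726721-4730161, reverse strand), a TGF-beta superfamily ligand gene placed in neither branch here, had 2 thresholded summits in 5.19 kb. The promoter summit, 100 bp upstream, had a pooled signal of 169 (rank 1338), with 90.6 in replicate 1 and 82.4 in replicate 2. The other, 1442 bp upstream, had a pooled signal of 188 (rank 1095), with 82.2 in replicate 1 and 93.6 in replicate 2. It lay 308 bp upstream of F39G3.3, the divergent neighbour, and so nearer to that gene. Their order by signal was reversed in replicate 1. The 2 weaker pooled summits in the tig-2 body, at 24.7 and 23.6, had no overlapping peak in either replicate.

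The strongest ligand summits are shown, read on the forward strand of WBcel235, since they had no GAGAGA within the printed window.
dbl-1, 6260 bp upstream, chrV:6751825-6751925: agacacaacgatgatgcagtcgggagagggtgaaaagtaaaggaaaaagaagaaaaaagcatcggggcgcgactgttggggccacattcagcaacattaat
tig-2, 1442 bp upstream, chrV:4731553-4731653: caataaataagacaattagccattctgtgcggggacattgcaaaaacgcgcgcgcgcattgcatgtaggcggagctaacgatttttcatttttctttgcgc

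Among the receptor genes, daf-1 (WBGene00000897, chrIV:132416-138081, forward strand), for the type I receptor of the dauer branch, had no thresholded summit but 9 pooled ones. Its strongest, 120 bp upstream, had a signal of 92.6 and ranked 3494th. Replicate 2 placed its peak there at rank 2415 with a signal of 61.6, and replicate 1 at rank 6425 with 34.1. The promoter of daf-1 was thus within the strongest 2575 peaks of replicate 2 and far outside those of replicate 1. Coding-exon summits 3247 and 4686 bp downstream had signals of 68.3 and 51.0.

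daf-4 (WBGene00000900, chrIII:5625135-5632323, forward strand) encodes the type II receptor. Its 15.1 kb region held 14 pooled summits, more than any member but daf-5, of which 1 passed the threshold. That summit, 3654 bp upstream, had the lowest signal of the 14 thresholded member summits, 120.5 (rank 2376), with 67.4 in replicate 1 (rank 2015) and 55.8 in replicate 2 (rank 2809). It lay 29 bp from the non-coding RNA gene C05D2.13. With piRNA genes left out, no other thresholded member summit lay within 200 bp of a non-coding gene. A coding-exon summit 5482 bp downstream reached 91.4 (rank 3558), outside the 2575 peaks of the thresholded list. The daf-4 window, on the forward strand of WBcel235, is shown because C05D2.13 overlaps it; its capitals mark CAGAC, the reverse complement of GTCTG.
daf-4, 3654 bp upstream, chrIII:5621431-5621531: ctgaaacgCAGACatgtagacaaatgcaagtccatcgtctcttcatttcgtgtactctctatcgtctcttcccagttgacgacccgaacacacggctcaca

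Among the SMAD genes, daf-14 (WBGene00000910, chrIV:10250627-10255852, forward strand), of a SMAD that acts with DAF-8 against dauer entry, held the strongest member summit outside daf-5. It lay 1962 bp downstream of the long transcript's start, in that transcript's first intron of 2.89 kb, and 1077 bp upstream of the start of the short transcript F01G10.8a.1. Its pooled signal was 306 (rank 351), with 171 in replicate 1 (rank 279) and 136 in replicate 2 (rank 490). As in daf-5, the summit lay in a first intron upstream of a shorter transcript. The other daf-14 summit, at 34.1, was weak in all lists.

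daf-3 (WBGene00000899, chrX:817922-825475, reverse strand) encodes the SMAD that promotes dauer entry and partners DAF-5. Its thresholded summit, 2224 bp upstream, had a pooled signal of 176 (rank 1244), with 71.6 in replicate 1 (rank 1815) and 104.5 in replicate 2 (rank 902). That summit was nearer to wdr-54, 1204 bp upstream of its 5′ end. Closer to daf-3, a summit 662 bp upstream had a signal of 96.9 (rank 3277), outside the 2575 peaks of the thresholded list. In replicate 2 a summit 504 bp upstream reached 55.7 (rank 2822). The 4 pooled summits in the daf-3 body stayed between 23.6 and 43.4.

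The windows of daf-14 and daf-3, on the forward strand of WBcel235, contrast a long run of alternating T and C, capitals marking TCTCTC, with a single GTCTG, also in capitals.
daf-14, intron, 1962 bp downstream, chrIV:10252539-10252639: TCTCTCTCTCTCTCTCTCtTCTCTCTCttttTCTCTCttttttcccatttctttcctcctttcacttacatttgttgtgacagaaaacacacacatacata
daf-3, 2224 bp upstream, chrX:827649-827749: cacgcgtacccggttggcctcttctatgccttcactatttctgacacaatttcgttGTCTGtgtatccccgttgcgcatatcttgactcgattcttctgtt

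sma-3 (WBGene00004857, chrIII:6860974-6863968, reverse strand), for a SMAD of the body-size branch, had no summit in any of the 4 lists over its 4.23 kb region. It was the only member with none.

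daf-8 (WBGene00000904, chrI:8584424-8587507, reverse strand), for the other SMAD that acts against dauer entry, had a single summit in each list. It lay 3253 bp upstream and 455 bp upstream of the divergent neighbour ran-4. Its pooled signal was 138 (rank 1913), with 72.4 in replicate 1 (rank 1784) and 65.7 in replicate 2 (rank 2191). The pooled list held no weaker summit over daf-8, unlike over the other 6 members with a thresholded summit.

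Comparing the branches, the 6 dauer genes held 10 thresholded summits in 65.5 kb, or 1.53 per 10 kb, and the body-size genes dbl-1 and sma-3 held 1 in 16.0 kb, or 0.624 per 10 kb. Without daf-5, the other 5 dauer genes held 3 in 38.6 kb, or 0.777 per 10 kb. daf-5 thus held 7 of the 10 dauer summits. Of the other 5, daf-7 and daf-1 had none. Body-size genes outside the 10 members, such as sma-9 with 5 thresholded summits and sma-6 and sma-4 with 0, were not in this count. Each branch count is of so few genes that no difference between the branches can be read from it.

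The 9 members other than daf-5 held 7 thresholded summits in 74.9 kb, or 0.935 per 10 kb. With daf-5 the members averaged 1.38 per 10 kb over 101.8 kb. The median signal over the 14 summits was 179, and 8 of 14 exceeded the list's median. The weakest thresholded summits were those of daf-4 at 120.5, daf-5 at 133 and daf-8 at 138. The strongest member summits below the threshold were those of daf-5 at 108.7 (rank 2755) and daf-3 at 96.9 (rank 3277). Those of daf-1 at 92.6 (rank 3494) and daf-4 at 91.4 (rank 3558) followed.

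All 14 thresholded summits overlapped a peak in both replicates. The replicate summit nearest to each lay a median of 9.5 bp away and at most 97 bp away, and 26 of 28 lay within 50 bp. Their ranks ran from 66 to 2243 in replicate 1, with a median of 1475, and from 103 to 2809 in replicate 2, with a median of 1031. The strongest member summit was the same in both replicates, while the order of the middling ones was not. The daf-5 summit 11641 bp downstream ranked 506th in replicate 2 and 1470th in replicate 1. This overlap is part of how the list was made, since the authors' threshold rests on reproducibility.

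**Figure D3:**
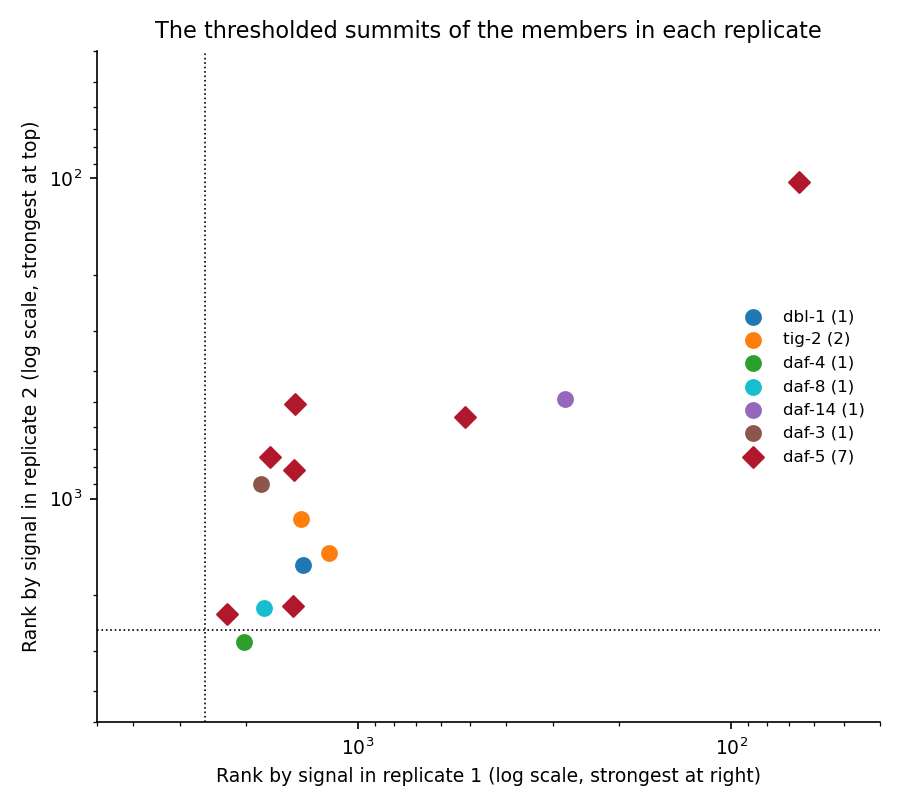
Rank by signal of the 14 thresholded summits in replicate 1 and in replicate 2, on log axes with the strongest at the upper right; diamonds are daf-5 and dotted lines stand at rank 2575. The daf-5 summit at ranks 66 and 103 stands apart, and the daf-4 summit, at rank 2809, is the only one outside the strongest 2575 of a replicate.

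The 56 weaker pooled summits were spread over gene bodies, with 14 in coding exons, 21 in introns, 4 in untranslated regions and 17 upstream. A replicate 1 peak overlapped 52 of them, a replicate 2 peak 37, both 36 and neither 3. A −log10 q of 2 or more was found at 5 of the 56. The same shares over all weaker pooled peaks are not given here, and the replicate 1 list is the longer. No trait of these genes can therefore be read from these counts. Of 61 neighbouring pairs of pooled member summits, 26.2% lay 190 to 260 bp apart, where 15.6% of neighbouring pairs in the whole pooled list did. Member pairs were taken within a gene's region, while pairs of the whole list also cross region borders and long gaps. The shares are therefore unlike, and closer spacing at these genes cannot be read from them. No pair in the whole list lay closer than 190 bp.

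Short words were then counted within 75 bp of each summit on both strands. Words were not used in choosing the genes, but they were themselves chosen with earlier results of these data known. Of the 14 windows, 7 are of daf-5, which was chosen for its summits. GAGAGA occurred at 7 of 14 member summits (50%) and in 2 of 28 member flanks (7.14%), taken with equal width 500 bp to either side. Over all 2575 thresholded summits it occurred at 45.2% and in 7.30% of flanks. At weaker pooled summits it occurred at 5 of 56 in the members (8.93%) and at 16.2% in the whole list. Its share at the members was thus close to that of the list. The summits with it were those of daf-8, daf-14, daf-3, tig-2 at its promoter, and daf-5 at 1630, 11641 and 11844 bp downstream. The daf-14 window held 14 matches, overlaps counted, and its longest run of alternating bases was 25 long, where 4.08% of all thresholded windows had a run of at least 14.

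GTCTG, a core word of SMAD binding sites, occurred at 8 of 14 member summits (57.1%) and in 6 of 28 member flanks (21.4%). Over all thresholded summits it occurred at 25.3% and in 14.5% of flanks. The weaker member summits had it at 16 of 56 (28.6%), and those of the whole list at 17.3%. Of the 8, 4 were in the daf-5 intron, and the others were at dbl-1, daf-4, daf-3 and the tig-2 promoter. The palindrome GTCTAGAC, which does not hold GTCTG, occurred at the strongest daf-5 summit and at 4 of 2575 thresholded summits (0.155%), and in 0.136% of flanks. Matches are letters in a window and do not show that a SMAD protein was bound.

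The POU octamer ATGCAAAT occurred at 0 of 14 member summits and at 0.854% of all thresholded summits. The shorter ATGCA, part of the octamer, occurred at 3 of 14 (21.4%), those of dbl-1, daf-4 and tig-2 at 1442 bp upstream, and at 20.8% of all. CANNTG, the E-box, occurred at 7 of 14 (50%) and at 51.7% of all. TAATTA, a homeodomain word, was at 0 of 14 and at 1.51% of all. GGGCGG, a GC box, was at 0 of 14 and at 10.4% of all. AGATAA, the word of GATA factors, was at 0 of 14 and at 6.25% of all. A count of 0 in 14 windows allows a share of up to 21.4%, by counting error alone. The GC content averaged 47.1% ± 4.43 (SD, n = 14 windows) at member summits and 35.4% in their flanks, and 47.6% ± 6.45 (SD, n = 2575 windows) at all summits and 35.1% in theirs. It exceeded the flanks at 13 of 14 member summits, all but the upstream summit of daf-5, at 35.8% against 41.4%. The part of base composition in the shares of words was not tested.

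**Figure D4:**
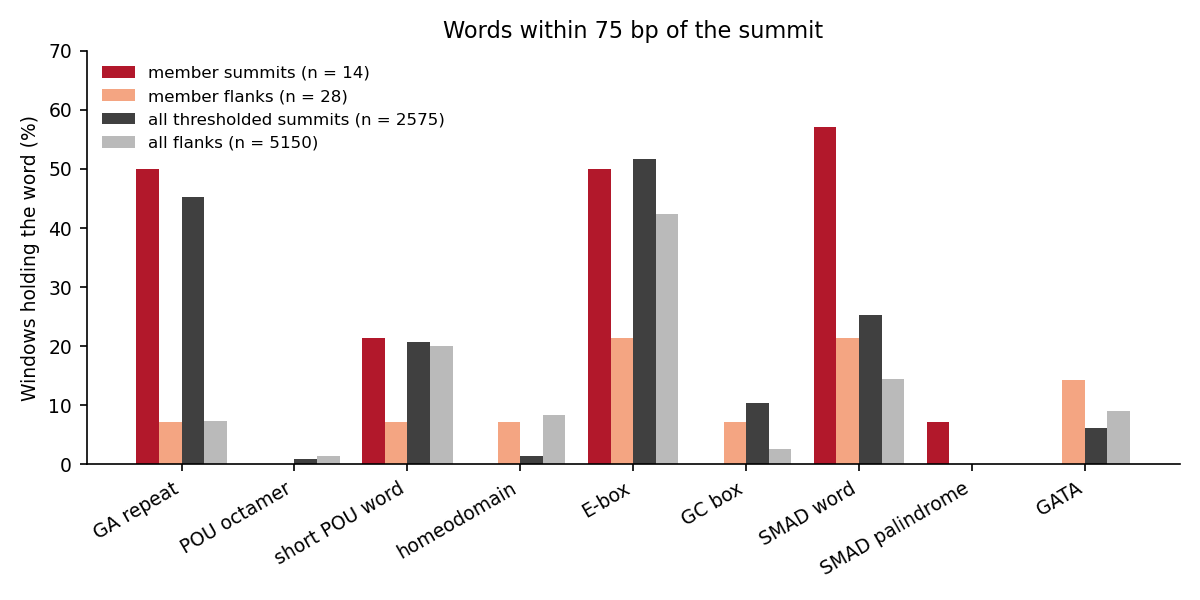
Share of windows, in percent, that hold each of the 9 words within 75 bp of the centre, at member summits, member flanks, all thresholded summits and all flanks. The GA repeat (GAGAGA) stands at 50% of member and 45.2% of all summits, and the SMAD word (GTCTG) at 57.1% and 25.3%; other labels are the POU octamer (ATGCAAAT), short POU word (ATGCA), homeodomain word (TAATTA), E-box (CANNTG), GC box (GGGCGG), SMAD palindrome (GTCTAGAC) and GATA word (AGATAA).

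Of 19 other genes of these pathways, 7 (36.8%) had a thresholded summit, 13 in all, and 12 had none, where 13.9% of all protein-coding genes had one. Their regions had a median length of 9.75 kb, against 3.83 kb for all protein-coding genes. sma-9, for a Schnurri-family zinc finger protein that acts with the body-size SMADs, had 5. The strongest, in its first intron 1926 bp downstream, had a pooled signal of 620.3 (rank 25), with 320.4 in replicate 1 and 307 in replicate 2, above every daf-5 summit. The sma-9 summits 1926 and 2125 bp downstream shared an interval, and those 2956 and 2742 bp upstream lay in overlapping intervals. kin-29, for a salt-inducible-type kinase that affects body size, had 2 in its promoter window, at 541 and 225, inside the same interval. tig-3, for another TGF-beta family ligand, had 2, at 209.6 and 118. The stronger lay 11491 bp upstream of tig-3, nearer to the 5′ end of another gene.

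The other 4 genes had 1 summit each. That of tsp-21, for a tetraspanin of the body-size branch, reached 255 at 191 bp downstream. Those of tag-68, for a SMAD-like protein, bra-1, for a receptor-associated protein, and the SMAD gene sma-2 had signals of 138, 134 and 118. The tag-68 summit lay 10454 bp upstream, nearer to the 5′ end of another gene. The body-size receptor gene sma-6 and the SMAD gene sma-4 had no pooled summit, as sma-3 had none. Their regions were short, at 4.28, 4.69 and 4.23 kb, and a pooled summit lay in the regions of only 56.0% of all protein-coding genes. A promoter-window summit was found at 4 of the 19, against 1 of the 10 members and 7.20% of all protein-coding genes. No test of these differences was made.

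Few genes held as many summits as daf-5. Of 283 genes with a region at least as long, daf-5 included, 130 (45.9%) had a thresholded summit, and 5 genes of the whole annotation had 7 or more. The likeness rule, at least 7 summits with none in the promoter window, was met by 4 genes, daf-5 included. Nearest to daf-5 in region length was ppfr-1, for a phosphatase regulatory subunit, with 10 summits in 26.7 kb, or 3.74 per 10 kb. egl-27, for a chromatin protein related to the MTA family, had 8 in 31.5 kb, or 2.54 per 10 kb. Likeness is of summit number and region length only. The minimum of 7 is the count of daf-5 itself, for which it was chosen, so these values test nothing.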

How the data were processed

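Peak lists of CEH-18 in late embryos, from 2 biological replicates of 1 group, were used on the ce11 build. Per the labels and their notes, the authors called peaks per replicate, in a pooled list and in a list thresholded on reproducibility, with a control alignment. No aligner or peak caller is named in the labels read here. Each peak's signal and its −log10 q are as deposited by the authors, and 1912 thresholded peaks shared the highest −log10 q of 3.582, so peaks were ranked by signal. The ce10 thresholded list gave only its number of peaks, 3485. Depth is unknown.

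The genome and Ensembl release 115 genes were of WBcel235, the same build, and 0 peaks passed a chromosome end. Sequences are from RefSeq's WBcel235 assembly. Summits are 1-based. A replicate peak was matched by an overlap of at least 1 bp, taking the nearest summit. The members, gene lists, words and rules were chosen with earlier results of these data known, so no test was made. Named genes were all 10 members, the coding genes beside them, pathway genes with a thresholded summit and the 3 genes most like daf-5, of which 1 is not reported here. The counting was checked on simulated peaks. Alternatives were other region borders, list lengths, merging of near summits, single replicates and word windows. Python 3.11.15, numpy 2.4.6, pandas 2.3.3 and matplotlib 3.10.9 were used.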

Additional observations from a re-analysis of the deposited data

How the results depend on the processing

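The 14 summits at the 10 genes, 7 of them at daf-5, were recounted under 11 other settings, of which merging within 250 bp, a list as long as that of ce10 and summits nearest to the own 5′ end were chosen after seeing the data. In the promoter window only, daf-5 kept 0 summits, 1 gene kept 1 summit in all, and the dauer and body-size branches had 0 each. With the 1287 strongest thresholded peaks, 4 genes held 8 summits and the body-size branch 0. With the upstream border at a gene of any biotype but piRNA, dbl-1 and daf-4 each lost their only summit. A non-coding gene lies between each of these 2 genes and its summit. This left 5 genes with 12 summits and the body-size branch with 0. With the region carried on downstream, daf-1 had 1 summit, and 8 genes held 15. Within 150 bp in place of 75 bp, GAGAGA occurred at 11 of the 14 summits and 5 of those of daf-5, and at 60.1% of all thresholded summits. With only summits nearest to the own 5′ end, daf-8 and daf-3 each had 0 and tig-2 had 1. This left 5 genes with 10 summits and the dauer branch with 7. The other settings moved the counts of daf-5, all 10 genes, each branch and GAGAGA by no more than 1.5 times. Merging within 250 bp gave daf-5 6 summits, and the 5000 strongest pooled peaks gave it 9 of 19. Without replicate 1 or without replicate 2, daf-5 had 7 and the genes 14 in all, but by replicate 2 alone daf-1 had 1 and daf-4 had 0. GTCTG, recounted after seeing the data, occurred at 7 of the 14 within 50 bp and 9 within 150 bp, and at 18.6% and 39.8% of all thresholded summits. All 14 overlapped both replicates under both other definitions. No paired analysis was possible because the samples form 1 group. Without read counts, weak summits such as that at daf-7 cannot be told from background.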
